A study of Rattus norvegicus with 46 samples.

Results

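The 10 genes described here encode enzymes that finish collagen outside and inside the cell: the lysyl oxidases Lox, Loxl1, Loxl2, Loxl3 and Loxl4, the lysyl hydroxylases Plod1, Plod2 and Plod3, the procollagen C-proteinase Bmp1 and its enhancer Pcolce. They were chosen by symbol, and all 10 were present among the 23747 symbols of each of the 11 deposited gene tables. Their levels came from the transcripts that carry them in the deposited table of estimated counts.

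Fibrillar collagen is hydroxylated on lysine by the Plod enzymes in the endoplasmic reticulum, trimmed of its C-terminal propeptide by Bmp1 after secretion, and crosslinked by lysyl oxidases that act on lysine and hydroxylysine side chains. Pcolce binds the procollagen propeptide and speeds the cut made by Bmp1. Plod2 hydroxylates the telopeptides at the ends of the molecule, and crosslinks made from hydroxylated telopeptides are known as the kind that accumulates in scar tissue. Loxl1 is best known from elastic fibres, and tendon strength rests on the crosslinks of type I collagen.

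The study asked what the subacromial bursa, a thin sac that lies over the rotator cuff, does when the supraspinatus tendon beneath it is cut. Poly(A) RNA of 46 rat libraries was sequenced. Injured bursa was taken at day 14 (6 libraries) and day 3 (6) after supraspinatus tenotomy, and control bursa came from rats without an operation (5). Cut supraspinatus tendon was taken at day 14 after tenotomy with the bursa removed (6) or intact (6) and at day 3 with the bursa removed (6) or intact (6), and control tendon came from rats without an operation (5). No age, sex or strain was used here, since the labels give none. The labels state that tendons were controlled within each rat without naming the rat of each library, so p-values measure the spread between libraries. Totals per library ran from 12425823 to 69947597 estimated counts, with the next below the highest at 22615613.

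Some libraries stood apart before any comparison. Control bursae 1 and 2 were low in collagen, with 270 and 170 CPM (estimated counts scaled to the library total) of Col1a1 against 1858, 2996 and 2079 CPM in control bursae 3, 4 and 5. Control bursa 4 held 1216 CPM of 4 cartilage genes, 2803 CPM of 8 tendon cell genes and 1154 CPM of 5 synovial lining genes, against 1 to 2, 88 to 599 and 366 to 545 CPM in the other control bursae. Control bursa 1 held 19493 CPM of 8 skeletal muscle genes, against 517 to 2445 CPM in the other control bursae. Control tendons held 37738 to 59718 CPM of these muscle genes, against 2157 to 25533 CPM in the 24 injured tendons, and the highest injured tendon was day 3 removed number 1. Scx and Tnmd, which mark tendon cells, averaged 28.3 and 265 CPM in control tendon and 2.49 and 17.3 CPM in control bursa. In bulk RNA, fewer cells of a type and less RNA per cell cannot be told apart.

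**Figure D1:**
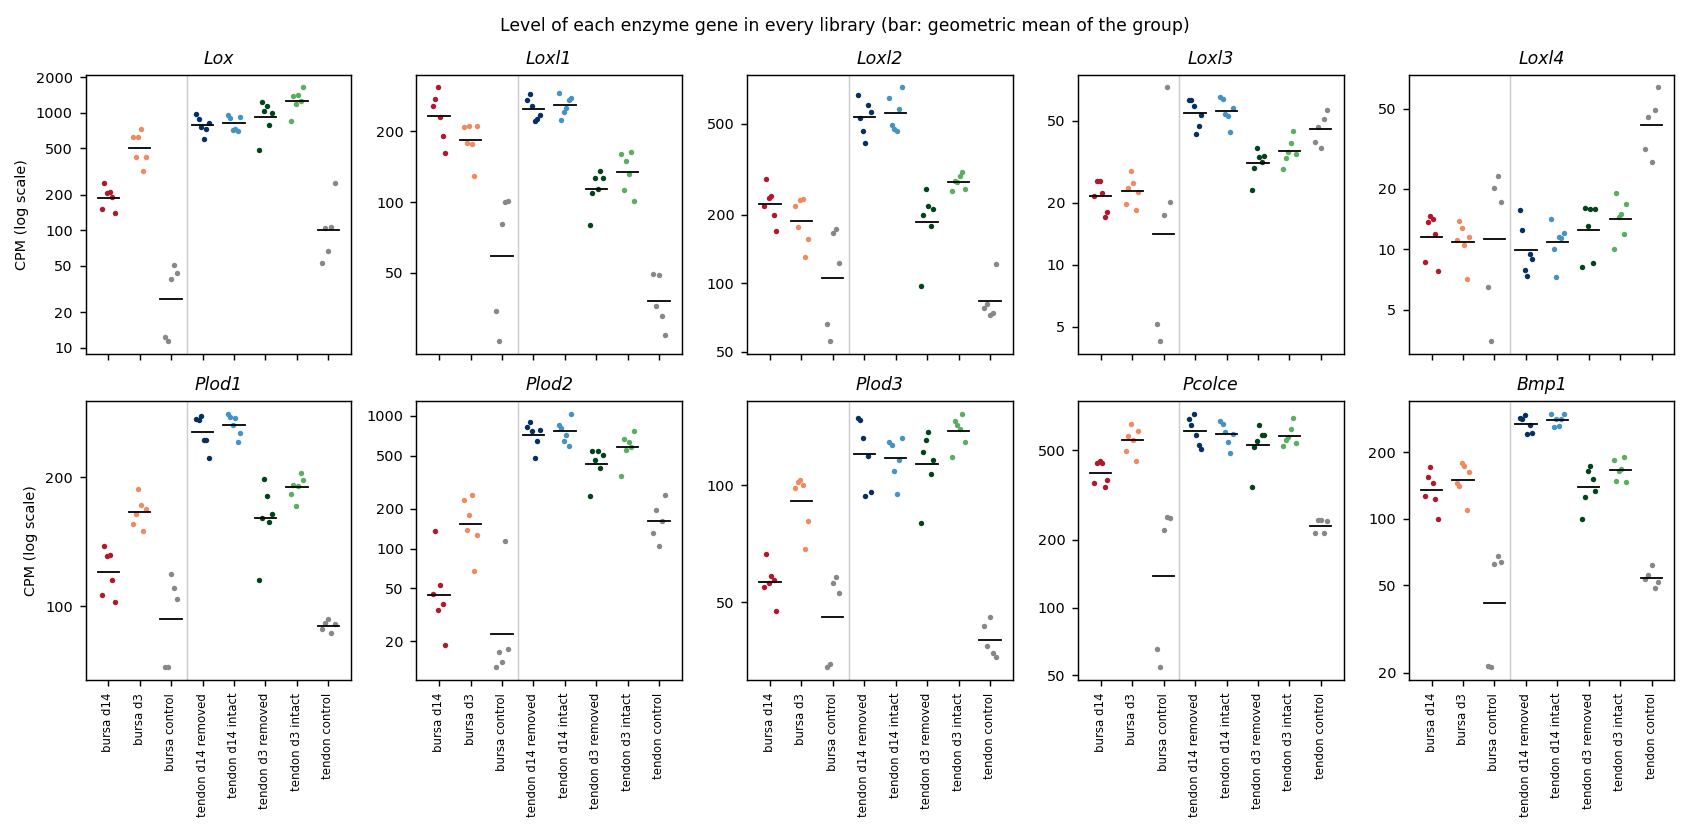
Level of each enzyme gene in CPM (log axis, scaled separately for each gene) in every library of the 8 groups, with bursa groups left of the grey line and tendon groups right of it. Points are libraries and bars are geometric means; Lox was at 140 to 254 CPM in day 14 bursa and 321 to 722 CPM in day 3 bursa, against 11.4 to 50.9 CPM in control bursa.

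The lysyl oxidase gene Lox had the highest fold change of the 10 members in both tissues at day 3. In injured bursa it had a lowest, median and highest level of 140, 200 and 254 CPM at day 14 and of 321, 521 and 722 CPM at day 3, against 12.4, 11.4, 38.2, 50.9 and 43.3 CPM in the 5 control bursae. Neither injured group overlapped the controls, and the day 14 and day 3 libraries did not overlap each other. By edgeR's quasi-likelihood test Lox rose by 2.62 ± 0.38 on the log2 scale at day 14 (SE, adjusted p = 5.6e-04) and by 4.09 ± 0.41 at day 3 (adjusted p = 1.4e-06), relative to control bursa. Its level at day 14 was 0.359-fold that of day 3 (adjusted p = 0.0054).

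In tendon, Lox had a lowest, median and highest level of 592, 792 and 980 CPM at day 14 with the bursa removed and of 696, 814 and 947 CPM with the bursa intact. At day 3 the corresponding values were 484, 1020 and 1243 CPM with the bursa removed and 850, 1308 and 1644 CPM with the bursa intact. Control tendons 1 to 5 had 52.1, 105, 66.7, 107 and 253 CPM, so every injured tendon was above every control. The log2 changes over control were 2.74 ± 0.30, 2.78 ± 0.30, 2.98 ± 0.30 and 3.41 ± 0.31 in the same order (adjusted p from edgeR between 3.2e-10 and 1.2e-08). With the bursa intact, Lox differed by -0.63 ± 0.26 between day 14 and day 3 (adjusted p = 0.054), which DESeq2 called at adjusted p = 0.037, and edgeR without day 3 intact tendon 1 (-0.74, adjusted p = 0.03).

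Loxl1 and Loxl2 were higher at day 14 than at day 3 in tendon, where Lox was not. In tendon with the bursa removed, Loxl2, which crosslinks type IV and fibrillar collagen, had a lowest, median and highest level of 411, 547 and 672 CPM at day 14 and of 96.8, 205 and 259 CPM at day 3. With the bursa intact the values were 463, 538 and 724 CPM at day 14 and 254, 279 and 307 CPM at day 3, and the control tendons had 77.5, 80.8, 72.4, 73.9 and 121 CPM. All day 14 tendons were above all day 3 tendons of the same bursa state. Day 14 over day 3 was 2.83-fold with the bursa removed (adjusted p = 4.8e-08) and 2.06-fold with the bursa intact (adjusted p = 1.2e-05).

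For Loxl1 the lowest, median and highest tendon levels were 221, 245 and 289 CPM at day 14 and 79.5, 120 and 135 CPM at day 3 with the bursa removed, and 223, 261 and 291 CPM at day 14 and 101, 141 and 163 CPM at day 3 with the bursa intact. The control tendons had 49.3, 36.2, 49.0, 32.6 and 27.1 CPM. Loxl1 at day 14 was 2.20-fold (removed, adjusted p = 2.1e-07) and 1.93-fold (intact, adjusted p = 3.1e-06) its level at day 3, and day 14, day 3 and control tendons did not overlap. In bursa, Loxl1 had 162, 244 and 308 CPM at day 14 and 129, 194 and 211 CPM at day 3 as its lowest, median and highest, against 34.4, 25.6, 80.3, 100 and 101 CPM in controls. Both injured bursa groups were above all controls, by 3.45-fold at day 14 (adjusted p = 0.002) and 2.79-fold at day 3 (adjusted p = 0.0013), and the change between the days was 0.31 ± 0.29 (log2, adjusted p = 0.49).

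Loxl2 in bursa rested on the control libraries. It had 170, 227 and 286 CPM at day 14 and 130, 198 and 235 CPM at day 3 as its lowest, median and highest, against 66.1, 55.7, 166, 173 and 123 CPM in controls, which overlapped the injured values on both days. The edgeR change was 0.94 ± 0.27 at day 14 (log2, adjusted p = 0.028) and 0.75 ± 0.27 at day 3 (adjusted p = 0.033). Without control bursae 1 and 2 these became 0.54 (adjusted p = 0.087) and 0.36 (adjusted p = 0.16). The call at day 14 was also lost without control bursa 1 or 2 or injured bursa 2 or 3 (adjusted p 0.05 to 0.063), and that at day 3 without control bursa 1 or 2 or injured bursa 1, 3 or 4 (adjusted p 0.061 to 0.078).

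Loxl4 fell in all 4 groups of injured tendon. It averaged 10.3 ± 3.21 and 11.1 ± 2.31 CPM at day 14 (removed and intact, SD, n = 6 each) and 12.9 ± 3.69 and 14.5 ± 3.24 CPM at day 3. The control tendons had 31.4, 45.6, 27.0, 49.4 and 63.9 CPM, and the 24 injured tendons, whose highest value was 19.0 CPM, were below all of them. It was 0.233-fold and 0.251-fold control at day 14 (removed and intact) and 0.289-fold and 0.323-fold at day 3, with adjusted p from edgeR between 1.5e-08 and 6.2e-07. In bursa, Loxl4 had 7.83 to 14.7 CPM at day 14 and 7.08 to 13.8 CPM at day 3, against 6.48, 3.49, 20.1, 23.2 and 17.1 CPM in controls. There the log2 changes were -0.27 ± 0.36 and -0.31 ± 0.36 (adjusted p = 0.63 and 0.51), and without control bursae 1 and 2 they were -0.78 (adjusted p = 0.027) and -0.80 (adjusted p = 0.0076).

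Loxl3, which is needed for palate and spine development in mice, was higher in tendon at day 14 than at day 3. It had 43.3, 56.3 and 63.4 CPM at day 14 and 23.2, 32.5 and 36.9 CPM at day 3 with the bursa removed, and 44.1, 55.7 and 65.1 CPM at day 14 and 29.2, 34.9 and 44.8 CPM at day 3 with the bursa intact, each as lowest, median and highest. The control tendons had 39.7, 46.5, 37.0, 50.8 and 56.5 CPM, which overlapped both day 14 groups and the day 3 group with the bursa intact. At day 3 Loxl3 fell to 0.661-fold control with the bursa removed (adjusted p = 2.5e-04) and to 0.753-fold with the bursa intact (adjusted p = 0.0071), and the second call was lost without control tendon 5 (adjusted p = 0.068). Day 14 over day 3 was 1.77-fold with the bursa removed and 1.59-fold with it intact (adjusted p = 4.5e-06 and 7.2e-05). Relative to control, the log2 change at day 14 was 0.23 ± 0.13 (removed, adjusted p = 0.13) and 0.26 ± 0.13 (intact, adjusted p = 0.079), and without control tendon 5 both were called (0.33 and 0.36, adjusted p = 0.04 and 0.023), as was the intact group without its own tendon 5 (0.32, adjusted p = 0.032). In control bursa its 5.17, 4.27, 17.5, 72.8 and 20.2 CPM spread widely, and control bursa 4, the library with cartilage, tendon cell and synovial lining genes, gave the highest.

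The lysyl hydroxylases rose together in tendon. Their promoters, from 250 bases before to 50 bases after the RefSeq gene start in build GRCr8, are shown because Plod2 is known in human cells as a target of hypoxia-inducible factors, whose core binding letters are ACGTG or GCGTG. Both strands were searched, overlapping matches were allowed, and matches are in capitals. The stretches are chr8:101964068-101964367 (plus strand) for Plod2, chr5:163650688-163650987 (minus strand) for Plod1 and chr12:25323582-25323881 (minus strand) for Plod3, each read 5′ to 3′ along its gene.
Plod2: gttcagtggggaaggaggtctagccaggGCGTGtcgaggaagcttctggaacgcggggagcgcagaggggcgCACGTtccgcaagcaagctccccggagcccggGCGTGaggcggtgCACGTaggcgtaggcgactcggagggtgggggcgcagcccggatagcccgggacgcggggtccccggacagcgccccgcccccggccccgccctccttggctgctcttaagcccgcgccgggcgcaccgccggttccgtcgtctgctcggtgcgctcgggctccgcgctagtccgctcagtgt
Plod1: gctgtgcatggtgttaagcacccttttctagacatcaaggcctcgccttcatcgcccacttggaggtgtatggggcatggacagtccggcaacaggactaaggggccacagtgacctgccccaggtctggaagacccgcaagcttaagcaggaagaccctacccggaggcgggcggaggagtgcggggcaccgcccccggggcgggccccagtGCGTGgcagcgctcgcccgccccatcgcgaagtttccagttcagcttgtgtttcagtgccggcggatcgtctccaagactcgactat
Plod3: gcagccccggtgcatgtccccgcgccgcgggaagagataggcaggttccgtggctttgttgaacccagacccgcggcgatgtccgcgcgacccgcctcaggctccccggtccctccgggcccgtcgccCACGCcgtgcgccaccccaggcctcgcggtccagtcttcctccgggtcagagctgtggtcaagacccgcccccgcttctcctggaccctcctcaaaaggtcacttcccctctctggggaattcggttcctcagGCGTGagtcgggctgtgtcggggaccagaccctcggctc
Plod2 held 4 matches, Plod3 held 2 and Plod1 held 1. Of 33469 RefSeq promoters of 300 bases, 41.6% held at least 1 match and 3.46% held 4 or more. Of the 7 members whose promoter was in the table, Loxl3 and Pcolce held 1 match each and Loxl1 and Loxl4 held 0. A match is a run of letters, and binding was not measured.

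Plod2 in tendon had a lowest, median and highest level of 485, 783 and 893 CPM at day 14 and 248, 490 and 544 CPM at day 3 with the bursa removed. With the bursa intact it had 598, 767 and 1043 CPM at day 14 and 354, 612 and 767 CPM at day 3, and the control tendons had 131, 194, 105, 161 and 252 CPM. Of the injured tendons, the lone one below the highest control was day 3 removed number 1, at 248 CPM. Plod2 was 4.29-fold and 4.54-fold control at day 14 (removed and intact) and 2.60-fold and 3.40-fold at day 3 (adjusted p from edgeR between 5.1e-09 and 5.7e-06). Day 14 over day 3 was 1.65-fold with the bursa removed (adjusted p = 0.0055) and 1.33-fold with the bursa intact (adjusted p = 0.11).

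In bursa, Plod2 had a lowest, median and highest level of 18.8, 41.8 and 135 CPM at day 14 and 67.7, 159 and 254 CPM at day 3, against 12.7, 16.7, 13.9, 114 and 17.6 CPM in controls. Control bursa 4 alone reached the day 3 range. The day 3 rise was 2.27 ± 0.65 on the log2 scale (adjusted p = 0.0093). It was 3.49 without control bursa 4, and without control bursae 1 and 2 it was 1.82 and no longer called (adjusted p = 0.062). At day 14 the change was 0.61 ± 0.61 (adjusted p = 0.51), and without control bursa 4 it was 1.82 (adjusted p = 0.016). Between day 14 and day 3 it was -1.66 ± 0.59 (adjusted p = 0.055), and DESeq2 called that difference (adjusted p = 0.014), as did edgeR without day 14 bursa 2 (-2.17, adjusted p = 0.018) or day 3 bursa 5 (-1.82, adjusted p = 0.041).

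Plod1 and Plod3 varied less within groups than Plod2. Plod1, a lysyl hydroxylase of the helical part of collagen, had a lowest, median and highest level of 222, 258 and 279 CPM at day 14 and 115, 163 and 198 CPM at day 3 with the bursa removed, and of 242, 270 and 282 CPM at day 14 and 171, 192 and 205 CPM at day 3 with the bursa intact, against 88.4, 91.5, 93.3, 86.4 and 90.8 CPM in control tendons. Plod3, which also adds glucose to galactosylated hydroxylysine, had means of 123 ± 24.2 and 118 ± 14.1 CPM at day 14 (removed and intact, SD, n = 6 each) and 115 ± 20.5 and 138 ± 12.7 CPM at day 3, against 40.2 ± 4.24 CPM in control tendon (n = 5). No injured tendon overlapped the controls for either gene. At day 14 relative to day 3, Plod1 rose by 0.67 ± 0.08 (removed) and 0.51 ± 0.08 (intact) on the log2 scale (adjusted p = 2.0e-07 and 1.3e-05), while Plod3 differed by 0.11 ± 0.12 and -0.20 ± 0.12 (adjusted p = 0.5 and 0.19).

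In bursa both peaked at day 3. Plod1 had means of 120 ± 15.3 CPM at day 14 and 167 ± 13.4 CPM at day 3 (SD, n = 6 each), against 95.3 ± 21.9 CPM in controls (n = 5), and Plod3 had 56.7 ± 6.15 and 92.2 ± 14.2 CPM, against 47.2 ± 11.8 CPM. At day 3 they were 1.79-fold and 2.00-fold control (adjusted p = 1.2e-04 and 8.9e-05). At day 14 they were 0.702-fold and 0.597-fold their day 3 level (adjusted p = 0.0088 and 0.0018) and differed from control by 0.33 ± 0.13 and 0.26 ± 0.15 on the log2 scale (adjusted p = 0.099 and 0.25), and Plod1 was called without control bursa 3 (0.42, adjusted p = 0.046).

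Bmp1, the procollagen C-proteinase, rose in steps in tendon. It had 242, 273 and 295 CPM at day 14 and 100, 143 and 173 CPM at day 3 with the bursa removed, and 259, 282 and 299 CPM at day 14 and 147, 166 and 191 CPM at day 3 with the bursa intact, each as lowest, median and highest. The control tendons had 53.1, 55.8, 61.9, 48.3 and 51.6 CPM, so the 3 levels did not overlap. Bmp1 was 4.86-fold and 5.07-fold control at day 14 (removed and intact) and 2.53-fold and 2.97-fold at day 3 (adjusted p from edgeR between 1.5e-15 and 2.6e-11).

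Its enhancer Pcolce was at a plateau by day 3. It had means of 614 ± 88.0 and 591 ± 69.7 CPM at day 14 (removed and intact, SD, n = 6 each) and 538 ± 105 and 584 ± 64.4 CPM at day 3, against 232 ± 16.7 CPM in control tendon (n = 5). The 4 injured groups were 2.25-fold to 2.60-fold control, and day 14 differed from day 3 by 0.21 ± 0.12 (removed) and 0.04 ± 0.12 (intact) on the log2 scale (edgeR adjusted p = 0.15 and 0.79). In bursa both genes were above all controls on both days. Pcolce was 2.36-fold control at day 14 and 3.38-fold at day 3 (adjusted p = 0.02 and 6.2e-04), and Bmp1 was 2.87-fold and 3.27-fold (adjusted p = 0.003 and 2.2e-04).

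**Figure D2:**
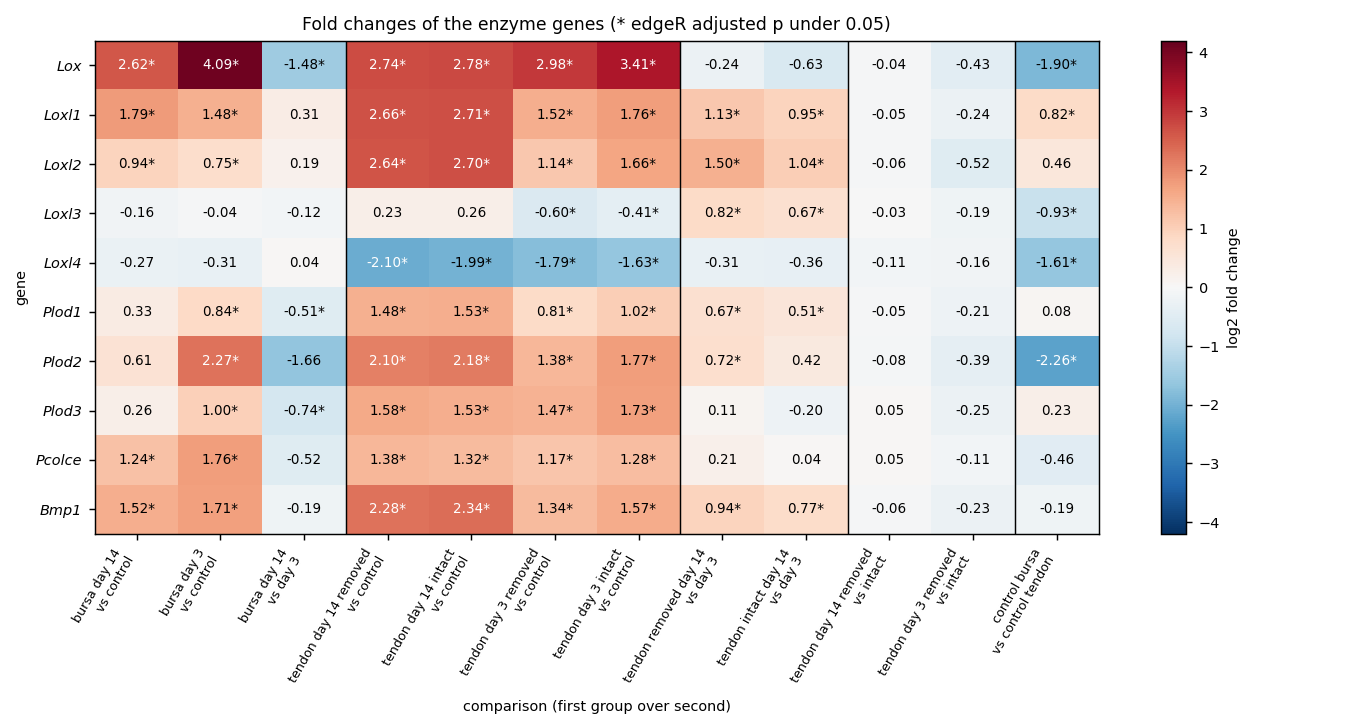
Log2 fold change (edgeR) of each enzyme gene (rows) in 12 comparisons (columns, group named first over group named second), with an asterisk where adjusted p was under 0.05. In tendon against control 8 of 10 genes were red in every column and Loxl4 was blue, while the columns for bursa removed against intact were pale and held no asterisk.

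Counted over the members, 5 of 10 rose in bursa at day 14 over control and 0 fell, where 9.23% of 16444 features rose and 7.06% fell. At day 3, 8 of 10 rose and 0 fell, where 22.0% of features rose and 24.0% fell. At day 14 relative to day 3, 0 of 10 rose and 3 fell (Lox, Plod1 and Plod3), where 9.37% of features rose and 12.2% fell. The median log2 change of the members was 0.78 at day 14 and 1.24 at day 3 over control, beside -0.05 and -0.06 for all features. Without control bursae 1 and 2, the counts were 4 up and 1 down at day 14 and 6 up and 1 down at day 3. No shares of features in that fit were set beside these counts, and those above belong to the fit with all controls. For day 14 relative to day 3 in bursa, the authors' deposited DESeq2 table had 0 members higher and 5 lower. It added Plod2 (padj = 0.002) and Pcolce (padj = 1.4e-05) to the 3 called by edgeR, where 16.5% of genes were higher and 17.8% lower.

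In tendon, the same 8 members rose over control in all 4 injured groups, namely Lox, Loxl1, Loxl2, Plod1, Plod2, Plod3, Pcolce and Bmp1. The shares of 16507 features called in either direction were 64.8% at day 14 removed, 65.9% at day 14 intact, 62.7% at day 3 removed and 65.2% at day 3 intact. Those that rose were 32.4%, 33.0%, 29.5% and 30.9% in the same order. Those that fell were 32.3%, 32.9%, 33.1% and 34.3% in the same order, and of the members Loxl4 fell in all 4 groups and Loxl3 in the 2 groups of day 3. The members' median log2 change was 1.84, 1.86, 1.25 and 1.62, beside 0.00, 0.01, -0.05 and -0.04 for all features. At day 14 relative to day 3, 6 of 10 rose and 0 fell with the bursa removed (23.3% and 21.6% of features, 44.9% in all) and 5 of 10 rose and 0 fell with the bursa intact (22.3% and 20.3%, 42.6% in all). In the authors' deposited table for the intact tendons 6 rose and 1 fell, where 22.4% of genes rose and 22.0% fell. It added Plod2 as higher (padj = 0.043) and Lox as lower (padj = 3.4e-04). With the bursa removed the deposited counts were the same as those of edgeR.

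The muscle RNA of control tendon moved with these changes. With the mean log2 CPM of the 8 muscle genes as a covariate, the counts over control were 8 up and 1 down in both day 14 groups, 6 up and 2 down at day 3 removed, and 7 up and 2 down at day 3 intact. No shares of features in that fit were set beside these counts. At day 3 Loxl2 then differed by 0.21 ± 0.22 with the bursa removed (log2, edgeR adjusted p = 0.52), and Plod2 by 0.32 ± 0.28 (removed, adjusted p = 0.44) and 0.56 ± 0.31 (intact, adjusted p = 0.21). Lox stayed called at 1.99 and 1.88 (day 14, removed and intact) and 2.04 and 2.35 (day 3). Loxl4 was further from control with the covariate, at -2.81, -2.85, -2.67 and -2.62. The part of muscle RNA in these differences cannot be told apart from injury, since injured and control tendons did not overlap in the summed level of these genes.

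Markers of other cells also moved with injury, as did 62.7% to 65.9% of all features in tendon over control. The shares for bursa are those given with the counts of the members. The marker counts were not tested against these shares, so the counts alone do not set a list apart. The part of other cells in the enzyme values was not tested. Of 6 macrophage genes, 4 rose at day 14 and 6 at day 3 over control, in bursa and in tendon of either bursa state, and 0 fell. Their summed level was 933 to 1551 CPM at day 14 and 1235 to 1886 CPM at day 3 in injured bursa, against 198 to 814 CPM in control bursa. Of 4 adipocyte genes, 1 fell at day 14 and 4 at day 3 in bursa, where the sum was 4726 to 6640 CPM and 1763 to 4553 CPM, against 6205 to 15082 CPM in controls. In tendon 4 of 4 adipocyte genes fell at day 14 in either bursa state, and 2 (removed) and 3 (intact) fell at day 3, where 0 rose. Of 4 cartilage genes, 1 rose in each tendon group, 2 fell at day 14 and 3 fell at day 3, in either bursa state. Of 8 tendon cell genes, 3 rose and 2 fell at day 14 and 0 rose and 5 fell at day 3 in tendon with the bursa intact. Of 5 fibroblast genes, a list that holds collagens, 3 rose at day 14 and 4 at day 3 in both bursa and tendon with the bursa intact, and 1 fell in tendon on each day. Of 5 smooth muscle and pericyte genes, 0 fell at day 14 and 3 at day 3 in bursa, and 2 fell at day 14 and 5 at day 3 in tendon with the bursa intact. In each of these groups 1 of 5 synovial lining genes rose and 1 or 2 fell. At most 1 of 3 endothelium genes rose and at most 2 fell, and at most 2 bone forming cell genes rose and at most 2 fell.

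Ratios of 2 genes within a library do not depend on library scaling, and several differed between the days. Loxl2 over Lox, as mean log2 ratio of counts, was -0.55 ± 0.17 at day 14 and -2.29 ± 0.22 at day 3 with the bursa removed, -0.54 ± 0.22 and -2.18 ± 0.31 with the bursa intact, and 0.23 ± 0.16 and -1.42 ± 0.13 in injured bursa (SD, n = 6 each). Day 14 was thus 3.34-fold, 3.11-fold and 3.16-fold day 3 in the 3 settings, with no overlap between the days (exact permutation p = 0.0022 each, the smallest that 6 against 6 allows, adjusted p = 0.011 over 154 tests). The control ratios were -0.26 ± 0.63 in tendon and 2.02 ± 0.38 in bursa (n = 5 each). Loxl1 over Lox moved likewise, by 2.55-fold and 2.99-fold in tendon (removed and intact) and 3.35-fold in bursa, day 14 over day 3 (exact permutation, adjusted p = 0.011 each).

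Pcolce over Bmp1 was lower in tendon at day 14 than at day 3. The mean log2 ratio was 1.18 ± 0.13 and 1.07 ± 0.19 at day 14 (removed and intact) and 1.93 ± 0.15 and 1.80 ± 0.15 at day 3, against 2.10 ± 0.10 in control tendon. At day 14 the ratio was 0.530-fold and 0.491-fold that of control (exact permutation p = 0.0043 each, the smallest that 6 against 5 allows, adjusted p = 0.011). In bursa it was 1.56 ± 0.18 at day 14 and 1.89 ± 0.14 at day 3, against 1.73 ± 0.25 in controls, and the days differed (exact permutation, adjusted p = 0.023). Plod2 over Plod1 was higher than control in tendon at day 14, by 1.58-fold and 1.61-fold (removed and intact, exact permutation, adjusted p = 0.049 and 0.034). At day 3 it was 1.52-fold and 1.71-fold control (adjusted p = 0.054 and 0.034), and day 14 over day 3 was 1.04-fold and 0.944-fold (adjusted p = 0.8 and 0.75). In bursa it was 1.54-fold control at day 14 and 3.78-fold at day 3 (adjusted p = 0.42 and 0.041). Without control bursae 1 and 2 the day 3 call in bursa was lost (adjusted p = 0.17).

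The members were also set against a substrate, Col1a1, the type I collagen alpha 1 chain. Over Col1a1, the ratio fell for 10 of 10 members in bursa at day 14 and for 8 of 10 at day 3, relative to control (exact permutation, adjusted p under 0.05). Col1a1 itself rose there by 3.33 and 3.73 on the log2 scale, beside -0.05 and -0.06 for the median of all features. Any gene that rose less than Col1a1 falls in this ratio. The share of all features that did was not counted, so these counts do not set the members apart. Control bursae 1 and 2 were left out after their low Col1a1 had been seen. Without them the ratio also fell for 10 of 10 and 8 of 10. Each of these passed at the smallest p that 6 against 3 allows (exact permutation p = 0.024, adjusted p = 0.045). Lox over Col1a1 at day 3 then was 0.48 above control on the log2 scale, at that same p, beside -0.13 with all controls (exact permutation, adjusted p = 0.81). In tendon, where Col1a1 also rose, the ratio over Col1a1 fell for 6 of 10 at day 14 in either bursa state. At day 3 it fell for 4 of 10 (removed) and 5 of 10 (intact). These counts include Loxl4, which itself fell in each group, and Loxl3, which itself fell at day 3. Lox over Col1a1 was the exception at day 3 in tendon. Its mean log2 ratio was -4.32 ± 0.27 (removed) and -4.26 ± 0.42 (intact), against -5.37 ± 0.45 in control tendon, 2.07-fold and 2.16-fold higher (exact permutation, adjusted p = 0.011 each). By day 14 it was -5.71 ± 0.25 and -5.68 ± 0.15, differing from control by -0.34 and -0.31 (adjusted p = 0.2 each).

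**Figure D3:**
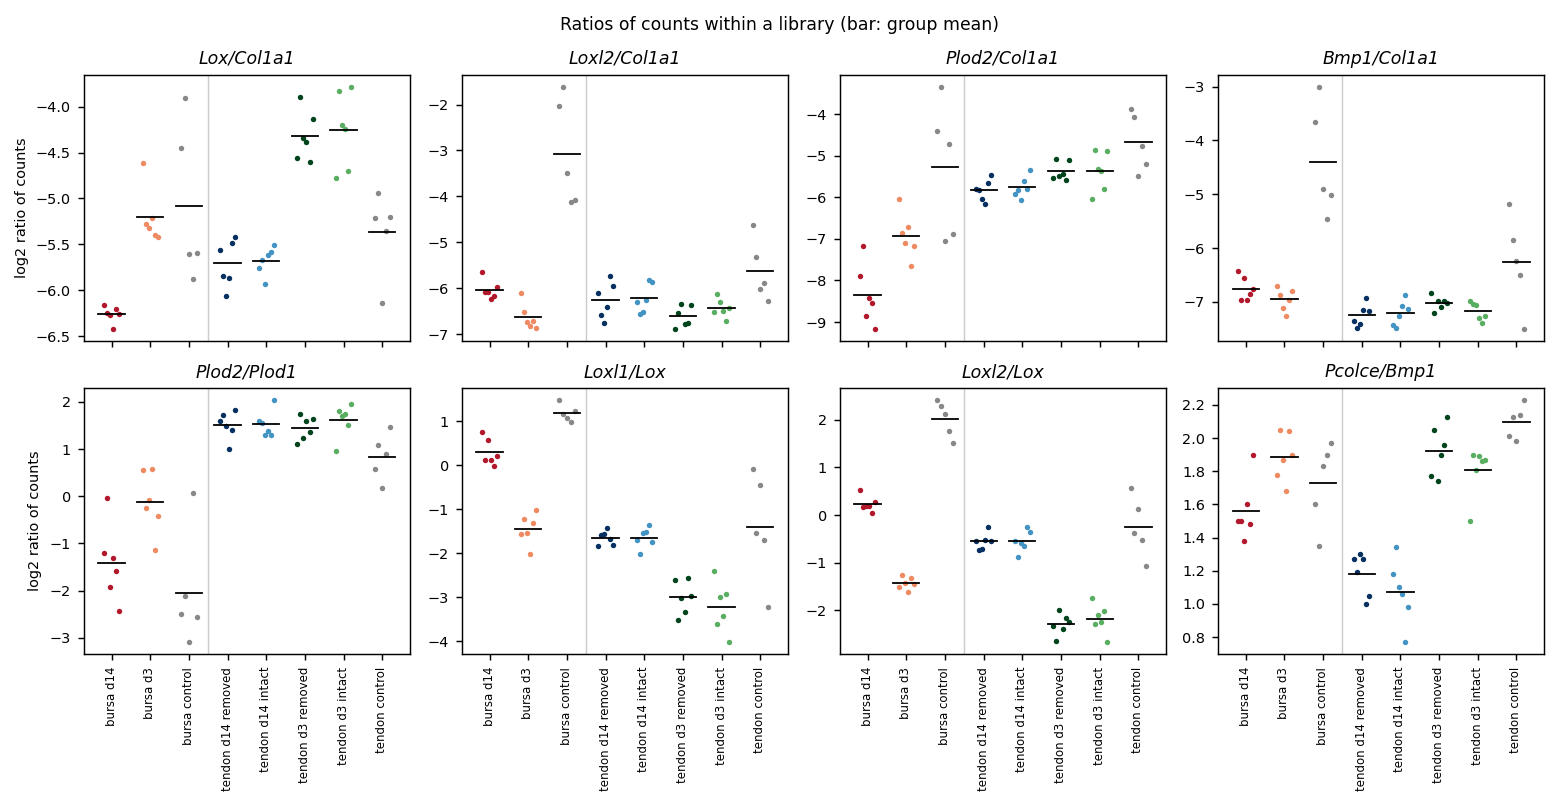
Log2 ratio of counts of 8 gene pairs in every library of the 8 groups, with the group mean as a bar and bursa left of the grey line. The ratio of Loxl2 to Lox had no overlap between day 14 and day 3 in any of the 3 settings, and the ratio of Pcolce to Bmp1 was lowest in both day 14 tendon groups.

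The collagen substrates gave the scale of these changes. Col1a1 averaged 41599 ± 8489 and 41927 ± 6765 CPM at day 14 (removed and intact) and 18551 ± 4129 and 24376 ± 4506 CPM at day 3, against 4708 ± 2797 CPM in control tendon. Its log2 rise over control tendon was 3.12 ± 0.28, 3.13 ± 0.28, 1.93 ± 0.27 and 2.32 ± 0.27 in that order (edgeR adjusted p between 3.3e-10 and 5.3e-07). Eln, which encodes elastin, the other substrate of lysyl oxidases, rose in day 14 tendon by 1.23 ± 0.33 and 1.15 ± 0.32 (adjusted p = 0.0018 and 0.0029). In bursa Col1a1 rose by 3.33 ± 0.60 at day 14 and 3.73 ± 0.62 at day 3 (adjusted p = 0.0023 and 1.6e-04).

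Other genes of collagen processing were counted from a list of 27, of which 21 could be tested. Most modify, fold or trim collagen, and the list also holds genes with other roles, such as Postn, Fn1, Fmod and Tmem38b. The shares of all features for these comparisons are those given with the counts of the members. In tendon 15 of 21 rose and 3 fell over control at day 14 in either bursa state, and at day 3 15 rose and 4 fell with the bursa removed and 16 rose and 4 fell with it intact. At day 14 with the bursa intact, Postn, which encodes the matrix protein periostin, rose by 6.96 ± 0.32 and the prolyl 4-hydroxylase subunit P4ha3 by 3.20 ± 0.22 on the log2 scale (adjusted p = 1.5e-15 and 2.1e-12). The prolyl 3-hydroxylase P3h2 fell by 2.50 and the collagen galactosyltransferase Colgalt2 fell by 1.86 (adjusted p = 1.5e-12 and 7.6e-10). In bursa 11 of 21 rose and 2 fell at day 14 and 15 rose and 3 fell at day 3, and at day 14 relative to day 3 9 of 21 fell and 0 rose. The highest of the list at day 3 in bursa were P4ha3 at 4.80 ± 0.74 and the chaperone Fkbp10 at 2.51 ± 0.38 (adjusted p = 9.3e-05 and 6.9e-05).

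Removal of the bursa was compared with retention at each day. At day 14 the 10 members differed by -0.11 to 0.05 on the log2 scale, and at day 3 all 10 were lower with the bursa removed, with log2 differences of -0.52 to -0.11. In the fit without pairing, edgeR called 0 of 10 members and 0 of 16507 features on either day (0% called). At an unadjusted p under 0.05 it had 0 members and 211 features at day 14 and 4 members and 1291 features at day 3, and DESeq2 called 1 and 10 features and 0 members.

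The replicate numbers pair removed with intact tendons, and the authors' deposited tables for this contrast were matched by a fit with the number as a block. For day 14, 0 of 10 members had a padj under 0.05 in the authors' deposited table, beside 0.0108% of genes. For day 3, 3 of 10 did in the authors' deposited table, all lower with the bursa removed, beside 0.643% of genes that were lower and 0.391% that were higher. The authors' deposited table, which gives intact over removed, has 0.46 ± 0.10 for Lox (log2, lfcSE, padj = 0.0044), 0.57 ± 0.14 for Loxl2 (padj = 0.0072) and 0.39 ± 0.08 for Plod2 (padj = 0.0018). DESeq2 on the estimated counts with the block gave -0.45 ± 0.11, -0.57 ± 0.15 and -0.39 ± 0.07 for removed over intact (adjusted p = 0.0094, 0.025 and 0.0013), where 0.402% of features were lower and 0.238% higher. The edgeR fit with the same block gave -0.45 ± 0.09, -0.56 ± 0.12 and -0.38 ± 0.10 (adjusted p = 0.13, 0.13 and 0.18) and called 0 of 16132 features, with 7 members and 2394 features at an unadjusted p under 0.05.

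Pair by pair, Lox at day 3 differed by -0.81, -0.14, -0.19, -0.30, -0.65 and -0.72 between removed and intact tendons numbered 1 to 6 (log2 CPM). Plod2 differed by -0.51, -0.31, -0.24, -0.23, -0.54 and -0.59, and Loxl2 by -1.39, -0.49, -0.10, -0.44, -0.78 and -0.30. All 6 pairs were thus lower with the bursa removed for each of these genes, as they were for Plod3, Col1a1, Col3a1 and Col5a1 (exact sign-flip permutation p = 0.031 each, two-sided, the smallest that 6 pairs allow, not adjusted over the 28 tests). The share of all features with 6 pairs lower was not counted. These pairs are the same libraries as in the fits above, so they add no separate evidence. At day 14 Lox differed by 0.05, -0.05, 0.11, -0.29, 0.05 and -0.17, with 3 of 6 pairs lower. Number 1 of the removed tendons at day 3 held 25533 CPM of muscle genes, against 3063 to 8885 CPM in the other removed tendons and 2970 to 7936 CPM in the intact ones. Without that pair, DESeq2 with the block gave -0.39 for Lox, -0.41 for Loxl2 and -0.37 for Plod2 (adjusted p = 0.02, 0.011 and 0.0023), and these stayed the 3 members called, where 0.300% of features were lower and 0.155% higher.

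**Figure D4:**
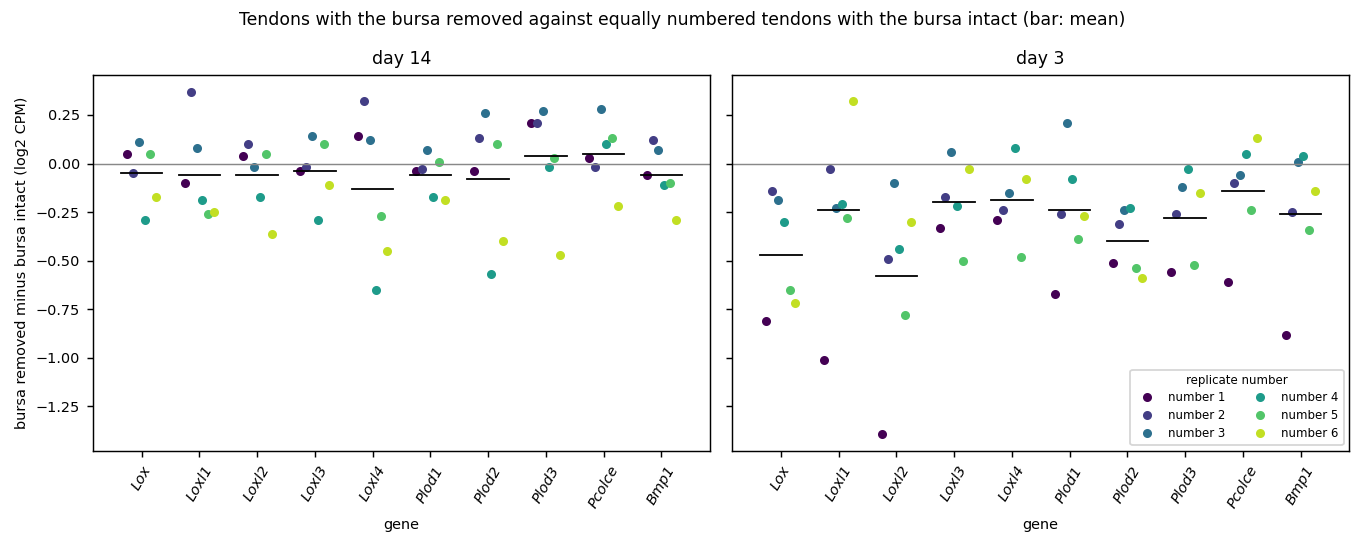
Difference in log2 CPM between tendons with the bursa removed and equally numbered tendons with the bursa intact, at day 14 (left) and day 3 (right), for each gene; points are the 6 numbers and bars their mean. At day 3 all 6 points lay below 0 for Lox, Loxl2, Plod2 and Plod3, and number 1 lay lowest for Loxl2, at -1.39.

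The removal effect was not shown to differ between day 14 and day 3 in the test of that difference (0 of 10 members and 0% of 16507 features by edgeR, with 0 members and 251 features at an unadjusted p under 0.05). For Loxl2 the difference of the effects was 0.46 ± 0.23 (log2, adjusted p = 1), and for Lox 0.38 ± 0.37 (adjusted p = 1). Of the ratios, Pcolce over Col1a1 alone differed between removed and intact tendons at day 3, with mean log2 ratios of -5.10 ± 0.13 and -5.37 ± 0.15 (exact permutation without pairing, adjusted p = 0.027). Taken as pairs 1 to 6 its differences were 0.42, -0.01, 0.00, 0.21, 0.51 and 0.50, and it was not called (exact sign-flip permutation p = 0.094, adjusted p = 0.17). No ratio passed in pairs on either day, and none could have. The smallest sign-flip p that 6 pairs allow, 0.031, cannot pass after adjustment over 154 tests, so the paired calls decide nothing. At day 14 none of the 14 ratios passed the exact permutation test. Lox over Col1a1 at day 3 differed by -0.06 (exact permutation, adjusted p = 0.82) and Plod2 over Col1a1 by 0.01 (adjusted p = 0.98).

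Control bursa and control tendon differed in 5 members. Control bursa was lower in Lox (0.268-fold), Loxl3 (0.526-fold), Loxl4 (0.329-fold) and Plod2 (0.208-fold) and higher in Loxl1 (1.76-fold), with edgeR adjusted p between 1.0e-05 and 0.025. Of 17400 features 50.8% were called in either direction, with 21.9% lower and 28.9% higher. The count of 5 members was near that share and does not set the members apart from other features. Markers of other cells differed with them: in control bursa 8 of 8 muscle genes and 7 of 8 tendon cell genes were lower and 4 of 4 adipocyte genes were higher, with median log2 differences of -3.20, -3.92 and 6.16, and their part in the enzyme differences was not tested. The call for Loxl3 was lost when any 1 of control bursae 1, 2, 3 and 5 or control tendon 5 was left out (adjusted p 0.055 to 0.079), and Plod2 was at -3.47 on the log2 scale without control bursa 4, beside -2.26 with it. Loxl2 was called higher without control bursa 1 or 2 or control tendon 5 (0.60 to 0.63, adjusted p 0.017 to 0.035), and Pcolce lower without control bursa 4 or 5 (-0.65 and -0.64, adjusted p = 0.027 and 0.03).

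The injury response, as change over the control of the same tissue, was set against that of tendon with the bursa intact. At day 14 it was smaller in bursa for Loxl1 by 0.94, Loxl2 by 1.78, Plod1 by 1.22, Plod2 by 1.58, Plod3 by 1.29 and Bmp1 by 0.84 on the log2 scale and higher for Loxl4 by 1.69, so that 6 of 10 were lower and 1 higher (19.0% and 15.3% of features). At day 3 it was lower for Loxl2 by 1.00 and Plod3 by 0.82 and higher for Loxl4 by 1.22, so that 2 of 10 were lower and 1 higher (14.2% and 9.71% of features). Loxl4 fell in tendon (-1.99 at day 14 and -1.63 at day 3) and was not called in bursa (-0.27 and -0.31). For Lox the responses differed by -0.18 ± 0.44 at day 14 (adjusted p = 0.78) and by 0.60 ± 0.44 at day 3 (adjusted p = 0.35). Without control bursa 4 the counts were 3 lower and 1 higher at day 14 and 2 lower and 3 higher at day 3, and the day 14 difference of Plod2 was -0.38 (adjusted p = 0.57). The shares of features above belong to the fit with all libraries, and none were set beside the counts without control bursa 4. The Plod2 call was lost on leaving out any of 9 libraries, and the day 3 call of Loxl4 without control bursa 1 or 2 or control tendon 4 or 5 (0.98 to 1.17, adjusted p 0.05 to 0.072). Muscle genes summed to 37738 to 59718 CPM in control tendons. With the bursa intact, injured tendons held 2157 to 8966 CPM at day 14 and 2970 to 7936 CPM at day 3. Control bursae held 517 to 19493 CPM, and injured bursae 1535 to 10065 CPM (day 14) and 10 to 8203 CPM (day 3). The part of muscle RNA in these response differences was not tested.

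**Figure D5:**
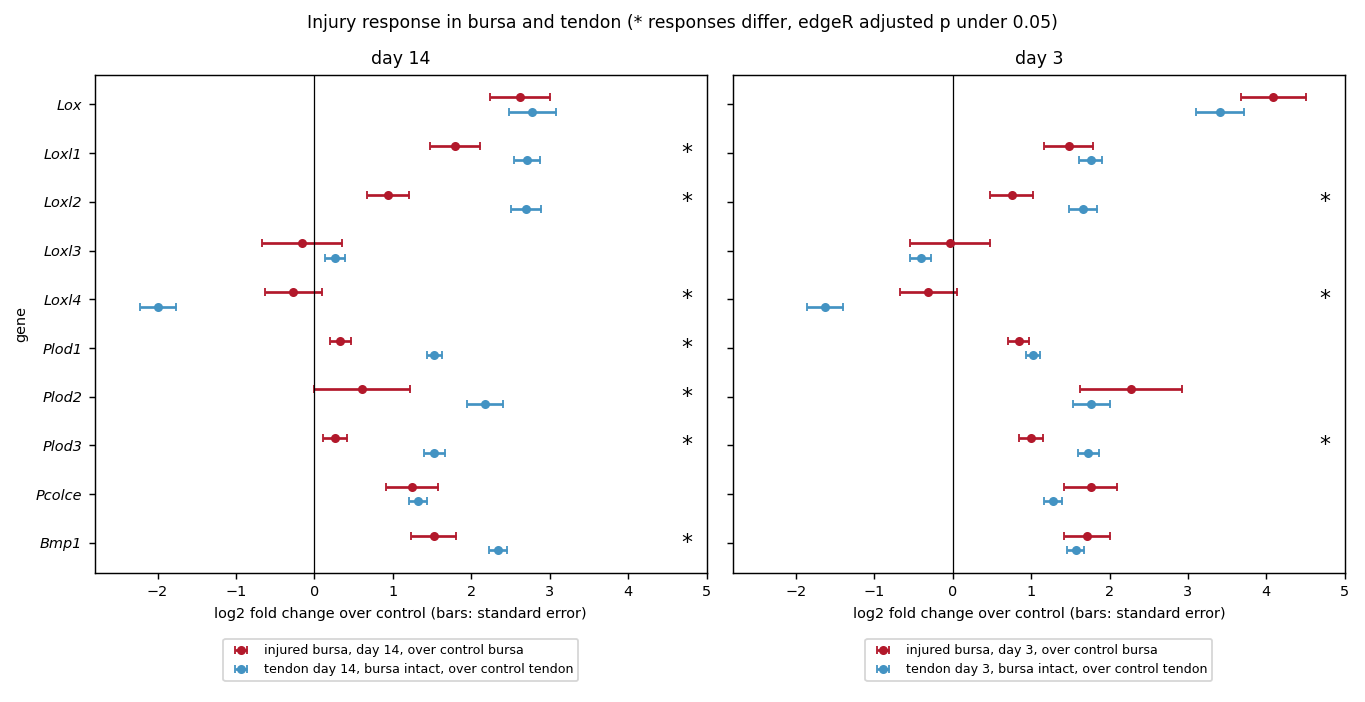
Log2 fold change over the control of the same tissue at day 14 (left) and day 3 (right) for injured bursa (red) and tendon with the bursa intact (blue), with standard errors; an asterisk marks genes whose responses differed. At day 14 an asterisk stands at 7 genes, and at day 3 at Loxl2, Loxl4 and Plod3.

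Over all 46 libraries, the levels of 3 symbols most like each member were found among symbols with a mean of at least 10 CPM, by Pearson r of log2 CPM. The libraries share tissue and injury state, so these values describe the set and carry no test. Lox was most like Ckap4, Kdelr3 and Rcn3 (r = 0.979, 0.977 and 0.968), and Plod3 most like Kdelr2, Sec61a1 and Kdelr1 (0.976, 0.973 and 0.966). Bmp1 was most like Col5a1, Cmtm3 and Cercam (0.985, 0.984 and 0.980), Loxl2 most like Ptgfrn, Dlg4 and Ctsk (0.964, 0.956 and 0.955) and Plod2 most like Casc4, Tnfrsf12a and Tnc (0.965, 0.958 and 0.957). Loxl4 had no symbol above Daam2 (0.794). Among the members, Plod1 and Bmp1 were most alike (0.93), and Loxl1 and Loxl4 least (-0.44).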

How the data were processed

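Poly(A) RNA of 46 rat libraries was sequenced from TruSeq libraries, per the labels' protocols. Per the submitters' processing notes, reads were made with bcl2fastq 2.19 and estimated counts per transcript with kallisto 0.44.0. The deposited estimated counts are whole numbers. The authors' 11 deposited gene tables come from DESeq2 and hold the mean of normalized counts (baseMean, a signal), log2 fold changes with standard errors, a test score, and p-values with their adjusted form. In the deposited tables of removed against intact tendons the fold is intact over removed. Build, annotation and DESeq2 version: not given in the sources used here.

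Symbols are absent from the transcript table, so a symbol was given to the transcripts whose scaled counts gave its means in the 11 tables. This matched 13577 of 23747 symbols and 90.3% of counts. All members matched within 0.125% except Lox, whose main transcript held 94.7 to 98.0% of the deposited Lox mean. Col1a2 was not matched.

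Counts were filtered by filterByExpr, scaled by TMM and tested in R 4.3.3 by the quasi-likelihood method of edgeR 4.0.16, with Benjamini-Hochberg adjustment over all features and a threshold of 0.05. Bursa (17 libraries), tendon (29) and all 46 libraries had 1 fit each, giving 15 comparisons, and DESeq2 1.42.0 was the alternative tool. CPM values use the TMM scaling of all 46 libraries. The 14 ratios used a pseudocount of 0.5 and exact two-sided permutation tests in 11 comparisons, adjusted over 154 tests. The steps were tested on simulated data.

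Tendons were controlled per rat, as the design text has it. The deposited log2 fold changes of removed against intact tendons correlated at 0.999 (day 3) and 0.998 (day 14) with DESeq2 fits that had the replicate number as a block, and at 0.93 and 0.881 without it. Deviations of equally numbered removed and intact tendons correlated at 0.04 to 0.59 (day 3) and 0.25 to 0.59 (day 14). The numbers were therefore taken as pairs, though the fits without the block, chosen earlier, were kept as the main ones.

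The members and gene lists were chosen with earlier results of these data known. Named genes are the 10 members, their substrates, the 2 highest and 2 lowest of the collagen processing list in a comparison, and the 3 symbols most like each member. Of the 27 genes of that list, 21 were matched and 6 were not analysed here. Marker lists were those of skeletal muscle, tendon cell, synovial lining, fibroblast, macrophage, adipocyte, cartilage, bone forming cell, smooth muscle and pericyte, and endothelium.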

Additional observations from a re-analysis of the deposited data

Results flagged for a closer look

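Of 80 groups of one gene tested for a library far from the others, 5 held one, where chance gives about 1 in 20. Control tendon 5 was high in Lox (253 CPM, the others 52.1 to 107) and Loxl2 (121 CPM, the others 72.4 to 80.8). Control bursa 4 was high in Loxl3 (72.8 CPM, the others 4.27 to 20.2) and Plod2 (114 CPM, the others 12.7 to 17.6), and it was also the control bursa with cartilage genes. Injured bursa 2 of day 14 was high in Plod2 (135 CPM, the others 18.8 to 53.2).

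The injury response of bursa minus that of tendon with the bursa intact passed the test of the difference (edgeR, adjusted over all features) for 10 pairs of gene and day. Of all 17400 features 34.3% passed at day 14 and 23.9% at day 3, and the 3 members of day 3 were near that share. At day 14 the difference was -0.94 for Loxl1, -1.78 for Loxl2, 1.69 for Loxl4, -1.22 for Plod1, -1.58 for Plod2, -1.29 for Plod3 and -0.84 for Bmp1 on the log2 scale. At day 3 it was 1.22 for Loxl4 and -0.82 for Plod3, and for Loxl2 the response in bursa fell by 1.00 relative to that in tendon. Without control bursa 4 the day 14 differences of Loxl1, Plod2 and Bmp1 were no longer called (-0.77, -0.38 and -0.68, adjusted p = 0.06, 0.57 and 0.053). The Loxl1 call was also lost without control bursa 5 (-0.76, adjusted p = 0.061). That of Plod2 was also lost without day 14 bursa 1, 3, 5 or 6, day 14 intact tendon 6 or control tendon 1, 3 or 4 (-1.57 to -1.40, adjusted p 0.051 to 0.066). The day 3 call of Loxl4 was lost without control bursa 1 or 2 or control tendon 4 or 5 (adjusted p 0.05 to 0.072).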

How the results depend on the processing

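Removed against intact tendon at day 3 had 0 members called without pairs, 3 by DESeq2 with a replicate block within day, and 3 by the same fit without pair 1. By edgeR with that block it had 0. With the replicate block 0 of 154 ratio tests passed, and none could have. The smallest p that 6 pairs allow is 0.031, which cannot pass after adjustment over 154 tests, so that count decides nothing. Outside removed against intact tendons, the numbers are not known to pair the samples. Leaving out 1 library gave 2 to 5 members for the day 3 difference in injury response (main 3), 4 to 7 for that of day 14 (main 7), 7 to 9 in bursa at day 3 (main 8), 4 to 6 in bursa at day 14 (main 5) and 76 to 95 ratio tests (main 82). For Loxl3 in bursa at day 3 the range was -0.30 to 0.98 on the log2 scale (main -0.04), and it reversed to 0.98 (adjusted p = 0.032) without control bursa 4; the cause was not tested. Of 2040 gene values with 1 library left out, 1993 kept direction and call, 31 lost and 15 gained the call. DESeq2 size factors and no filter on low counts kept all 150 gene values. A ratio to Col1a2 was not run. The replicate block for Plod2 in bursa between day 14 and day 3 was called at an adjusted p of 0.031, and its day 14 difference in injury response was lost (-1.42, adjusted p = 0.056), which left 6 members called of the main 7; there the numbers are not known to pair the samples. The block within day, DESeq2 with it, pairs left out and control bursae 1 and 2 left out were chosen after seeing the data. Gene length was not used, so levels cannot be compared between genes.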
